A study of Mus musculus with 4 samples.

Results

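The 9 genes described here are the 3 members of the GADD45 family (Gadd45a, Gadd45b and Gadd45g), Trp53, which encodes p53, and 5 genes that p53 is known to switch on (Cdkn1a, Mdm2, Ccng1, Phlda3 and Sesn1). They were taken by gene symbol, and all 9 were found among the 16566 genes in the files. The set was chosen by gene name with earlier results for the same libraries in view, namely their counts and TPM values across vehicle and ruxolitinib, so the members' values under treatment are a description and support nothing further. RNA was sequenced from neutrophils of C57BL/6 mouse bone marrow, at a labelled purity above 95%, after 1 h of culture in medium with 20% FBS. The ruxolitinib group (2 libraries) received ruxolitinib, an inhibitor of the kinases JAK1 and JAK2, for 1 h, at a concentration that the labels give as 0.1 µM in the treatment field and as 1 µM in the protocol. The vehicle group (2 libraries) received 80% glucose with 20% PEG300 for the same time. The number of mice and whether the libraries came from separate cultures are not given, so the spread between replicates may be technical.

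The transcription factor p53 is stabilised by DNA damage and other stress, and its targets halt the cell cycle, restrain growth or promote death. Its target Mdm2 encodes the ubiquitin ligase that marks p53 for destruction, which closes a feedback loop. The GADD45 proteins are small acidic proteins that bind the replication clamp PCNA, the mitotic kinase CDK1 and the stress kinase kinase MAP3K4. Gadd45a is a p53 target, Gadd45b was first found as an early gene of myeloid differentiation and is also induced by NF-kB, and Gadd45g was first found as a gene induced by cytokines.

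The promoters of the GADD45 genes are shown because these paralogs had different patterns across the libraries, and that of Cdkn1a because it is the standard p53 target. Each sequence is the 250 bases before a transcript start in the RefSeq table of GRCm38.p6, on the strand of the gene, from chr6:67037408-67037657 (minus strand) for Gadd45a, chr10:80929841-80930090 (plus) for Gadd45b, chr13:51846425-51846674 (plus) for Gadd45g and chr17:29090729-29090978 (plus) for the upstream start of Cdkn1a. In the GADD45 sequences, capitals mark the octamer ATTTGCAT, the CCAAT box and the TATA box TATAAA, on either strand. In the Cdkn1a sequence, capitals mark matches to the p53 half-site consensus.
Gadd45a: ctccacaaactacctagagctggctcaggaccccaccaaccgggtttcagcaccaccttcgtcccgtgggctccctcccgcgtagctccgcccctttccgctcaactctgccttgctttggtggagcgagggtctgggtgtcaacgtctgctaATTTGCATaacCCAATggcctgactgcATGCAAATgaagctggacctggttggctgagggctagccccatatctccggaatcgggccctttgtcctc
Gadd45b: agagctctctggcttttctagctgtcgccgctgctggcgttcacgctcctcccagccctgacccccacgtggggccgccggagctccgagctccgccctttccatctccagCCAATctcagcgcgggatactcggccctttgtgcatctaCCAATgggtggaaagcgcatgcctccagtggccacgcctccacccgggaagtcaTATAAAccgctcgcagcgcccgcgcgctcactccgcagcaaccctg
Gadd45g: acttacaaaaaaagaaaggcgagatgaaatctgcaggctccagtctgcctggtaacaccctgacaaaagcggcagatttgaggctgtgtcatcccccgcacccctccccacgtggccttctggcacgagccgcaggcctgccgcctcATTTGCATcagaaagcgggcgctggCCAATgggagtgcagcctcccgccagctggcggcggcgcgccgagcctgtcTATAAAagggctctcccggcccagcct
Cdkn1a: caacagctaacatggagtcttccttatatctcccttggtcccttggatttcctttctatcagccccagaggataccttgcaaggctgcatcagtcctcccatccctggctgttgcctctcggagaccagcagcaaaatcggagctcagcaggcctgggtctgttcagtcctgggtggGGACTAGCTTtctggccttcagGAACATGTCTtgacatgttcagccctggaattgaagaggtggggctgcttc
The octamer, added to the search after the sequences were seen, occurred in the Gadd45a window at -97 to -90 and, on the other strand, at -70 to -63, counted from the transcript start, and in the Gadd45g window at -103 to -96. It was in 1.6% of 32851 such windows of all genes. A CCAAT box was in all 3 GADD45 windows and in 8 of the 11 windows of the 9 genes, against 33.8% of all windows. A TATA box was in the windows of Gadd45b and Gadd45g and in 3 of the 11, against 12.4% of all windows. The p53 half-site matched in 6 of the 11 windows of the 9 genes and in 7.13% of all windows. The upstream Cdkn1a window held 2 matches, at -73 to -64 and at -51 to -42, and the window of the other Cdkn1a start held none. A half-site match in the Gadd45a window, at -40 to -31, is left in lower case. A p53 site of 2 half-sites with no gap matched in 0 of the 11 windows, against 0.00913% of all windows. That search allowed no mismatch, so it does not show that such a site is absent. The bases tgacatgttc, directly after the Cdkn1a match at -51 to -42, were not scored as a half-site. The AP-1 site TGANTCA (6.75% of all windows), the cAMP response element TGACGTCA (1.55%) and the NF-kB site (7.25%) matched in 0 of the 11 windows, which says only that these letters are not in these windows.

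The 4 libraries held between 14235511 and 15419579 estimated counts. They were led by neutrophil genes, with Ngp at 30235 and 34940 CPM (counts scaled to library size) in the ruxolitinib libraries and 30766 and 30667 CPM in the vehicle libraries. Vehicle replicate 2 stood apart from the other libraries. Of 11611 genes tested, 6.1% were at least 2-fold higher and 7.4% at least 2-fold lower in vehicle replicate 2 than in vehicle replicate 1. Between ruxolitinib replicate 2 and ruxolitinib replicate 1 these shares were 1.09% and 2.3%, and between ruxolitinib replicate 1 and vehicle replicate 1 they were 0.456% and 0.388%. The libraries that differed least therefore came from different groups.

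The comparison of ruxolitinib with vehicle asks whether genes of the p53 and GADD45 response differ after 1 h of JAK inhibition. Gadd45g and Gadd45a had the lowest fold changes of the 8 genes with enough counts, and both were highest in vehicle replicate 2. Gadd45b was highest in ruxolitinib replicate 2, while Cdkn1a in CPM hardly varied among the libraries. Of these 8 genes 0 passed the threshold, an adjusted p below 0.05 in edgeR's quasi-likelihood test with Benjamini-Hochberg adjustment over all 11611 genes, where 0% of all genes did. The adjusted p of the 8 genes lay between 0.975 and 0.977. Over all genes, edgeR called 0 genes, with 225 at an unadjusted p below 0.05, and DESeq2 also called 0, with 232 at an unadjusted p below 0.05. The other member, Phlda3, did not reach the minimum count.

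**Figure D1:**
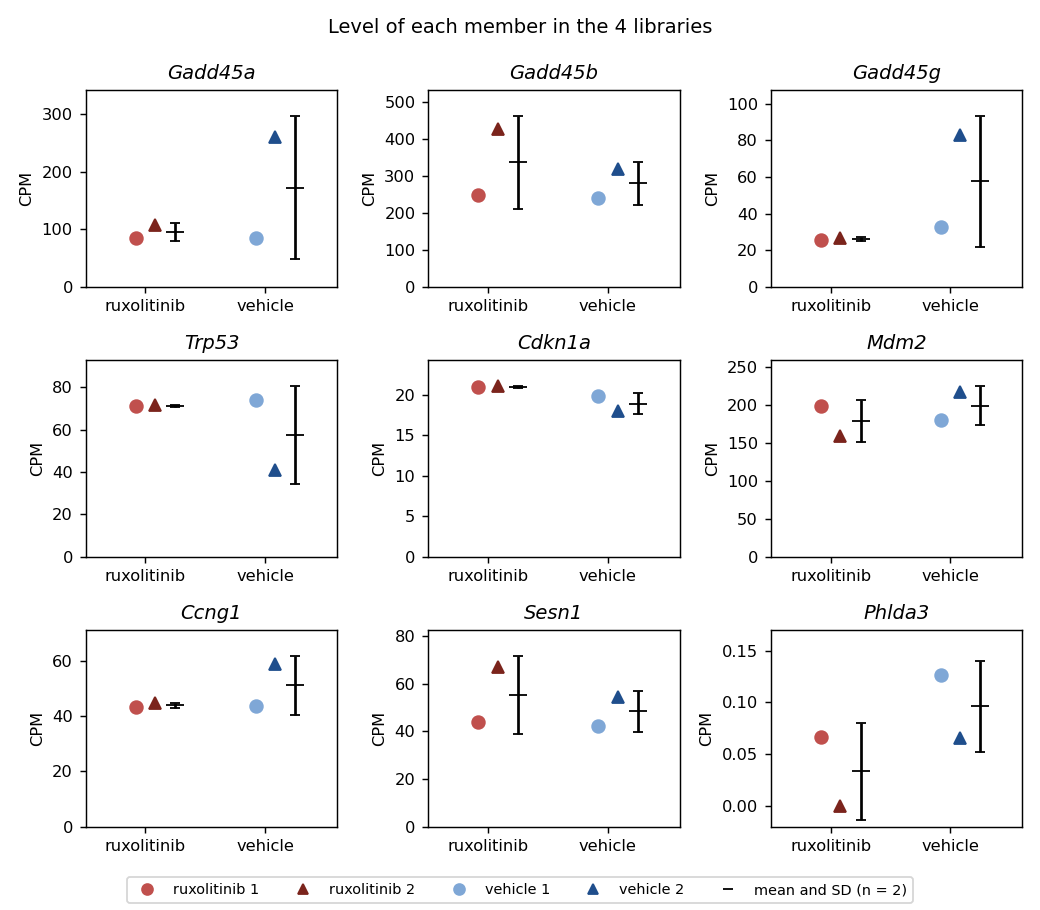
Level of each of the 9 genes in CPM, on a linear axis from 0 in each panel (slightly below 0 for Phlda3), in the ruxolitinib and vehicle libraries, with the group mean and SD (n = 2 each) in black. Gadd45a and Gadd45g are highest in vehicle replicate 2, at 261 and 83.0 CPM, Gadd45b in ruxolitinib replicate 2, at 425 CPM, and the Cdkn1a libraries lie between 18.0 and 21.1 CPM.

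Among the GADD45 genes, Gadd45a (chromosome 6, 67035096 to 67037407, GRCm38.p6) was at 84.0 and 107 CPM in the ruxolitinib libraries and at 84.2 and 261 CPM in the vehicle libraries. The groups overlapped, and 1 vehicle library lay far above the other 3. In vehicle replicate 2 the gene was 3.10-fold higher than in vehicle replicate 1, the rank of 138 from the highest ratio among 11611 genes. Its log2 fold change was -0.86 ± 0.44 (SE, n = 2 per group), with a 95% interval of -1.83 to 0.12. Without vehicle replicate 2 the value was 0.17, so the direction turned with that library.

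Gadd45g (chromosome 13, 51846675 to 51848475) was at 25.3 and 26.8 CPM in the ruxolitinib libraries and at 32.4 and 83.0 CPM in the vehicle libraries. Both ruxolitinib libraries lay below both vehicle libraries, as did 12.8% of all genes tested. Vehicle replicate 2 was 2.56-fold above vehicle replicate 1, a rank of 288 from the highest. The log2 fold change was -1.15 ± 0.40 (SE, n = 2 per group), with a 95% interval of -2.03 to -0.26. That interval is for a single gene and is not adjusted for the number of genes tested. With that adjustment the edgeR p was 0.975. Without vehicle replicate 2 the value was -0.32, the same direction at a smaller size. The pair that differed least over all genes, ruxolitinib replicate 1 and vehicle replicate 1, had 381 and 510 counts of Gadd45g, a log2 ratio of -0.35. Among all genes tested, this ratio had a rank of 675 from the lowest. The exact 95% Poisson intervals of these counts were 344 to 421 and 467 to 556. They cover counting error alone and are not scaled to library size.

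Gadd45b (chromosome 10, 80930091 to 80932204) was at 247 and 425 CPM in the ruxolitinib libraries and at 238 and 319 CPM in the vehicle libraries. In both groups replicate 2 was above replicate 1, and the groups overlapped. The ruxolitinib libraries differed by 1.72-fold, a rank of 388 from the highest ratio among all genes, and the vehicle libraries by 1.34-fold. The log2 ratio of ruxolitinib to vehicle in the fit was 0.27 ± 0.33 (SE, n = 2 per group), with a 95% interval of -0.45 to 0.99. Without ruxolitinib replicate 2 the value was -0.17, so here the direction turned with a ruxolitinib library.

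Other genes known to respond to stimulation also stood apart in vehicle replicate 2. The 27 immediate early genes, which cells switch on within minutes, summed to 5437 and 5986 CPM in the ruxolitinib libraries and to 5548 and 11851 CPM in the vehicle libraries, and 10 of them were at least 2-fold higher in vehicle replicate 2 than in vehicle replicate 1, with 2 at least 2-fold lower. Fos, which encodes part of AP-1, was at 72.9 and 49.9 CPM in the ruxolitinib libraries and at 79.1 and 1214 CPM in the vehicle libraries. Of the 22 NF-kB response genes, 2 were at least 2-fold higher and 11 at least 2-fold lower in vehicle replicate 2 than in vehicle replicate 1, with a median log2 ratio of -0.90. Over all genes tested, 6.1% were higher and 7.4% lower by that size between these libraries. Gadd45b, a known NF-kB target, had a log2 ratio of 0.42 between the same libraries. The part of stimulation in the GADD45 values was not tested.

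**Figure D2:**
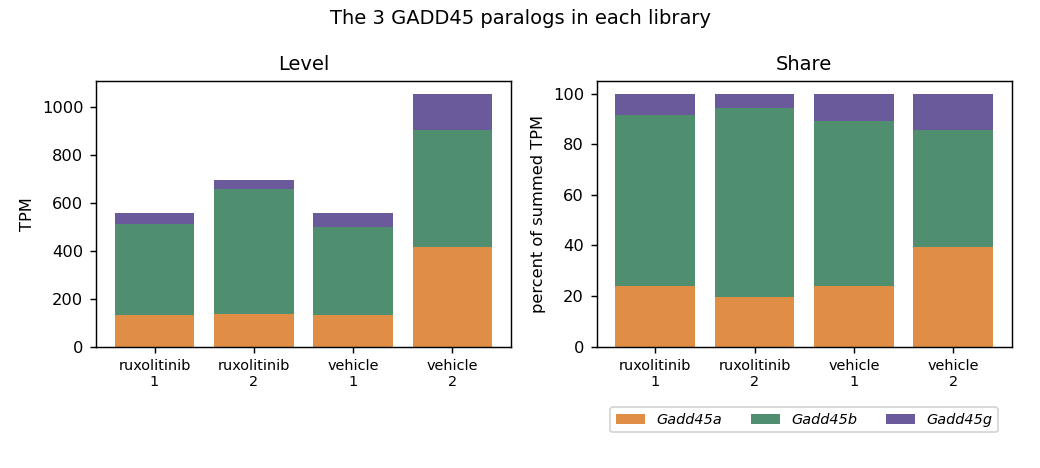
Levels of the 3 GADD45 paralogs in TPM (transcript levels scaled to length and library size) in each library (left) and the percent of their summed TPM (right), stacked by gene. Gadd45b takes 67.8% and 74.8% in the ruxolitinib libraries and 65.4% and 46.3% in the vehicle libraries, and vehicle replicate 2 has the highest sum.

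The paralogs can be compared in level in TPM, which the authors scaled to transcript length. Gadd45b was the most abundant of the 3 and Gadd45g the least in all 4 libraries. Their summed level was 558 and 696 TPM in the ruxolitinib libraries and 559 and 1056 TPM in the vehicle libraries. In CPM the sums were 356.6 and 558.5 in the ruxolitinib libraries and 354.8 and 663.1 in the vehicle libraries. The replicate 2 libraries were thus closer in CPM, since TPM values of ruxolitinib replicate 2 were low relative to CPM. Gadd45b made up 67.8% and 74.8% of that sum in the ruxolitinib libraries and 65.4% and 46.3% in the vehicle libraries. Gadd45a made up 23.9% and 19.5% in the ruxolitinib libraries and 24.0% and 39.3% in the vehicle libraries. The makeup thus held more Gadd45a in 1 vehicle library and was alike, within 3 percentage points, in ruxolitinib replicate 1 and vehicle replicate 1. The share of Gadd45g was 8.29% and 5.64% in the ruxolitinib libraries and 10.6% and 14.4% in the vehicle libraries, which do not overlap. Nor did the CPM values of Gadd45g, and both rest on the same counts. In CPM, 12.8% of all genes tested were wholly lower in the ruxolitinib libraries. The ratio of Gadd45b to Gadd45g was 8.18 and 13.3 in the ruxolitinib libraries and 6.16 and 3.22 in the vehicle libraries, and that of Gadd45b to Gadd45a was 2.84 and 3.83 in the ruxolitinib libraries and 2.73 and 1.18 in the vehicle libraries. No test was run on these shares, since exact two-sided permutation of 2 libraries against 2 cannot give a p below 0.333.

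Trp53 (chromosome 11, 69580348 to 69591873) was at 70.9 and 71.4 CPM in the ruxolitinib libraries and at 73.9 and 40.9 CPM in the vehicle libraries. Vehicle replicate 2, the library with the most Gadd45a and Gadd45g, had the least Trp53, and the other 3 libraries were close together. As a log2 fold change this was 0.31 ± 0.32 (SE, n = 2 per group), with a 95% interval of -0.40 to 1.02, and it was -0.06 without vehicle replicate 2. In vehicle replicate 2 the gene had 627 counts, against 1163 in vehicle replicate 1, with exact 95% Poisson intervals of 579 to 678 and 1097 to 1232. Only counting error is covered by these intervals.

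Mdm2 (chromosome 10, 117688875 to 117710758) was at 198 and 159 CPM in the ruxolitinib libraries and at 180.2 and 217 CPM in the vehicle libraries. The groups overlapped, with the lowest value in ruxolitinib replicate 2 and the highest in vehicle replicate 2. The log2 fold change was -0.15 ± 0.28 (SE, n = 2 per group), with a 95% interval of -0.77 to 0.47. Its estimated counts were not whole numbers (2984.65 and 2166.27 with ruxolitinib, 2837.56 and 3328.57 with vehicle), so some of its reads were shared with other features in the authors' counting. The counts of the other 8 genes were whole in the files.

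Among the other p53 targets, Cdkn1a (chromosome 17, 29090979 to 29100722), which encodes the cyclin-dependent kinase inhibitor p21, was at 20.9 and 21.1 CPM in the ruxolitinib libraries and at 19.8 and 18.0 CPM in the vehicle libraries. In CPM both ruxolitinib libraries lay above both vehicle libraries, as did 14.5% of all genes tested. In TPM the groups overlapped, at 20.4 and 16.5 TPM in the ruxolitinib libraries and 19.4 and 17.6 TPM in the vehicle libraries, with ruxolitinib replicate 2 the lowest. The log2 fold change was 0.15 ± 0.29 (SE, n = 2 per group), with a 95% interval of -0.49 to 0.79. Between the ruxolitinib libraries the log2 ratio of this gene was 0.01, and between the vehicle libraries it was -0.14.

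Ccng1 (chromosome 11, 40748552 to 40755309), which encodes cyclin G1, was at 43.4 and 44.7 CPM in the ruxolitinib libraries and at 43.7 and 58.9 CPM in the vehicle libraries. Here too vehicle replicate 2 was the highest and the other 3 libraries were close together. Its log2 fold change was -0.22 ± 0.29 (SE, n = 2 per group), and it was 0.00 without vehicle replicate 2. Sesn1 (chromosome 10, 41810574 to 41908436), which encodes sestrin 1, a restraint on the growth kinase mTORC1, was at 43.9 and 67.1 CPM in the ruxolitinib libraries and at 42.4 and 54.5 CPM in the vehicle libraries. As for Gadd45b, replicate 2 was above replicate 1 in both groups. The log2 fold change was 0.20 ± 0.31 (SE, n = 2 per group), and it was -0.14 without ruxolitinib replicate 2.

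Phlda3 (chromosome 1, 135766085 to 135769134), which encodes a small protein that restrains the kinase AKT, had 1 and 0 counts in the ruxolitinib libraries and 2 and 1 counts in the vehicle libraries. A count of 0 in ruxolitinib replicate 2 has an exact 95% Poisson interval of 0 to 3.69, and 3 counts are 0.221 CPM in that library. The highest count, 2, has an exact 95% Poisson interval of 0.242 to 7.22. All 4 values lay under 3 counts, so no fold change is given, and a difference was not detectable at this depth.

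In the GENCODE M21 annotation, also of GRCm38, 3 of the 9 genes overlap another gene. Gadd45a shares 859 bases with the noncoding gene E230016M11Rik on the opposite strand, Cdkn1a 1046 bases with a gene on the opposite strand, and Sesn1 2584 bases with 9930024M15Rik on its own strand. By gene symbol, the overlapping genes were not found among the 16566 genes, so their levels could not be given. The sources used here do not give the read strand, so reads of the overlapping parts cannot be told apart.

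**Figure D3:**
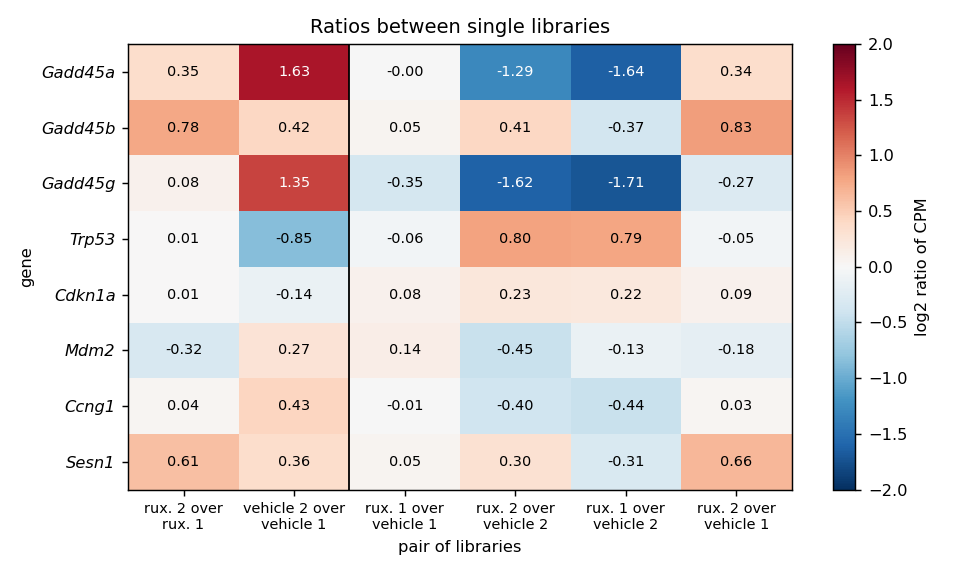
Log2 ratio of CPM between pairs of single libraries (columns) for the 8 tested genes (rows), with replicates of 1 group left of the line and ruxolitinib over vehicle right of it. Ratios between ruxolitinib replicate 1 and vehicle replicate 1 lie between -0.35 and 0.14, while Gadd45a and Gadd45g reach 1.63 and 1.35 between the vehicle libraries.

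Set against single libraries, the treatment comparison gave different answers for the same genes. Between ruxolitinib replicate 1 and vehicle replicate 1, 0 of the 8 genes differed by 2-fold or more, against 0.456% of all genes higher and 0.388% lower. Between ruxolitinib replicate 2 and vehicle replicate 2, Gadd45a and Gadd45g were at least 2-fold lower, at log2 ratios of -1.29 and -1.62, where 8.48% of all genes were at least 2-fold lower and 8.56% at least 2-fold higher. The same genes were at least 2-fold lower in ruxolitinib replicate 1 than in vehicle replicate 2, where 5.62% of all genes were lower and 7.05% higher by that size. Between ruxolitinib replicate 2 and vehicle replicate 1, 0 of the 8 differed by 2-fold, against 1.26% of all genes higher and 2.48% lower. Between the vehicle libraries Gadd45a and Gadd45g were at least 2-fold higher in replicate 2, where 6.1% of all genes were higher and 7.4% lower by that size. Between the ruxolitinib libraries 0 of the 8 differed by 2-fold, against 1.09% of all genes higher and 2.3% lower in replicate 2. The largest ratios there were those of Gadd45b (log2 0.78) and Sesn1 (log2 0.61).

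**Figure D4:**
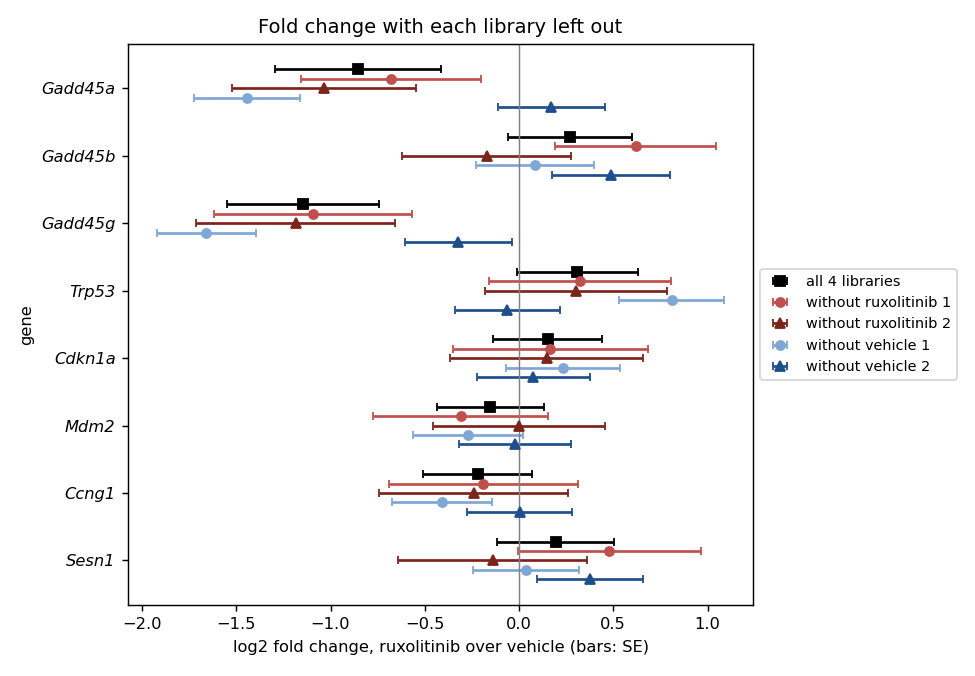
Log2 fold change of ruxolitinib over vehicle for the 8 tested genes with all 4 libraries and with each left out in turn, with SE as bars. Gadd45a lies at -1.44 without vehicle replicate 1 and at 0.17 without vehicle replicate 2, while Cdkn1a stays between 0.08 and 0.23.

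With each library left out in turn, calls among the 8 genes appeared in 1 of 4 fits. Without vehicle replicate 1, where vehicle replicate 2 alone stands for its group and its variation is taken from the ruxolitinib libraries, Gadd45a was at -1.44 (edgeR adjusted p = 0.000175), Gadd45g at -1.66 (adjusted p = 3.9e-06) and Trp53 at 0.81 (adjusted p = 0.0417). That fit called 7.13% of all genes higher and 6.62% lower, and Gadd45b at 0.09 and Cdkn1a at 0.23 were not called. The other fits called 0 of the 8 genes. Over the whole table edgeR called 2 genes (0.0169%) with vehicle replicate 2 left out, 10 (0.0833%) with ruxolitinib replicate 1 left out and 6 (0.0499%) with ruxolitinib replicate 2 left out. The fold change of Gadd45g was below 0 in all 4 of these fits, from -1.66 to -0.32, and that of Mdm2 from -0.31 to just under 0.

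By level in TPM, averaged over the 4 libraries, the genes ran from Gadd45b at 438 ± 78.1 TPM (SD, n = 4) through Gadd45a at 205 ± 140.4 TPM, Mdm2 at 102 ± 21.1 TPM, Gadd45g at 74.2 ± 52.5 TPM and Trp53 at 63.4 ± 16.1 TPM to Sesn1 at 33.6 ± 4.29 TPM, Ccng1 at 23.7 ± 5.11 TPM, Cdkn1a at 18.5 ± 1.76 TPM and Phlda3 at 0.085 ± 0.070 TPM. Each gene was above the next in all 4 libraries, except that Mdm2 was above Gadd45g in 3 of 4 and Gadd45g above Trp53 in 1 of 4, in vehicle replicate 2. Gadd45b lay at or above the 97.9 percentile of all genes in the files in every library, and Cdkn1a between the 69.3 and 71.7 percentiles. TPM and CPM are not interchangeable here. Relative to CPM, the TPM values of ruxolitinib replicate 2 were low, with a median log2 offset of -0.24 over 11591 genes, against 0.08 in each other library. Gadd45a in the ruxolitinib libraries was thus at 133 and 136 TPM but at 84.0 and 107 CPM.

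**Figure D5:**
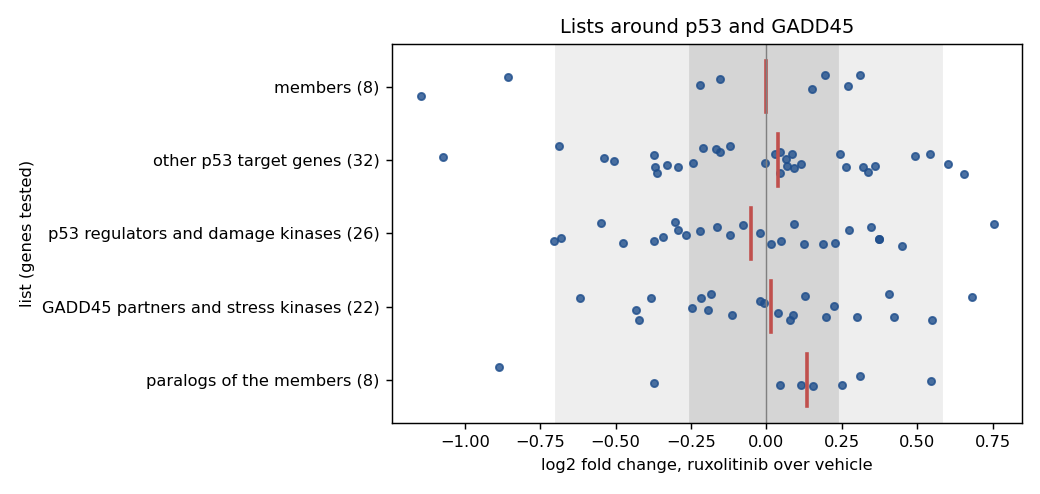
Log2 fold change of ruxolitinib over vehicle for the tested genes of 5 lists (points, spread vertically for visibility), with the median of each list in red. Grey bands give the middle 50% (-0.25 to 0.24) and 90% (-0.70 to 0.58) of all 11611 genes, and the list medians lie between -0.05 and 0.14.

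Lists of the wider p53 and GADD45 pathways held 0 called genes. Since edgeR called 0% of all 11611 genes tested, the 0 calls in these lists say nothing particular about the pathways. Over all genes tested, 50.6% had a log2 fold change below 0. Of 32 tested p53 target genes outside the 9, 0 were called, 17 had a log2 fold change above 0 and 15 below, and the median was 0.04, beside -0.005 over all genes. Plk2, which encodes a polo-like kinase, was at 30.3 and 41.0 CPM in the ruxolitinib libraries and at 28.3 and 122 CPM in the vehicle libraries, highest in vehicle replicate 2 as Gadd45a was. Its relative Plk3 was at 310 and 402 CPM in the ruxolitinib libraries and at 284 and 185 CPM in the vehicle libraries, so these related kinase genes stood on opposite sides in vehicle replicate 2. Apaf1, the scaffold of the apoptosome, was at 76.8 and 59.1 CPM in the ruxolitinib libraries and at 74.1 and 123 CPM in the vehicle libraries. Rps27l, a relative of a ribosomal protein gene, was at 7.57 and 9.04 CPM in the ruxolitinib libraries and at 6.22 and 4.30 CPM in the vehicle libraries. Between the vehicle libraries, 1 of the 32 genes was at least 2-fold higher and 1 at least 2-fold lower in replicate 2, with a median log2 ratio of -0.05. Of all genes, 6.1% were higher and 7.4% lower by that size.

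Of 26 tested p53 regulators and damage kinases, 0 were called, against 0% of all genes. In this list 12 were above 0 and 14 below, and the median log2 fold change was -0.05. Mdc1, a scaffold at DNA breaks, was at 26.2 and 22.2 CPM in the ruxolitinib libraries and at 31.2 and 46.4 CPM in the vehicle libraries. Nbn, a subunit of the complex that senses breaks, was at 18.1 and 21.8 CPM in the ruxolitinib libraries and at 15.9 and 7.70 CPM in the vehicle libraries. Mdc1 was wholly lower in the ruxolitinib libraries, as were 12.8% of all genes tested, and Nbn wholly higher, as were 14.5%. Of the 26 genes, 4 were wholly lower and 4 wholly higher. In both Mdc1 and Nbn the vehicle libraries differed more from each other than vehicle replicate 1 did from the ruxolitinib libraries. Ep300, a histone acetyltransferase that acts on p53, was at 335 and 249 CPM in the ruxolitinib libraries and at 323 and 531 CPM in the vehicle libraries, and the checkpoint kinase gene Chek2 had a fold change of -0.70 ± 0.44 on the log2 scale (SE).

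Of 22 tested GADD45 partners and stress kinases, 0 were called, against 0% of all genes. In this list 11 were above 0 and 11 below, and the median log2 fold change was 0.02. Mapkapk2, the kinase downstream of p38, was at 714 and 781 CPM in the ruxolitinib libraries and at 710.0 and 222 CPM in the vehicle libraries, low in vehicle replicate 2 where Gadd45a and Gadd45g were high. Its relative Mapkapk3 was at 84.2 and 58.8 CPM in the ruxolitinib libraries and at 83.5 and 108 CPM in the vehicle libraries. Tdg, a DNA glycosylase that acts with GADD45 proteins in removing methylated bases, had a fold change of 0.41 ± 0.30 on the log2 scale, and Gadd45gip1, named for its binding to GADD45 proteins, one of 0.55 ± 0.38 (SE). Among 8 tested paralogs of the 9 genes, some of which also stand in the other lists, 0 were called and 6 were above 0, with a median log2 fold change of 0.14. Phlda1, a paralog of Phlda3, was at 31.7 and 22.1 CPM in the ruxolitinib libraries and at 39.0 and 60.5 CPM in the vehicle libraries. On the log2 scale the fold change was 0.55 ± 0.32 for Sesn3, 0.31 ± 0.28 for Ccng2 and -0.37 ± 0.30 for Mdm4 (SE). Without vehicle replicate 1 the fit called 2 higher and 2 lower among the p53 targets, 1 and 2 among the regulators, 1 and 2 among the partners and 0 and 1 among the paralogs, against 7.13% and 6.62% of all genes.

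The genes most like each GADD45 gene were found by the distance between log2 CPM profiles over the 4 libraries, each centred on its mean. The distance was the root mean square. Candidates were genes of at least 10 CPM on average with an SD of at least 0.5 times that of the member. Predicted genes, Rik clones and pseudogenes were left out. For Gadd45a the nearest of 1846 candidates were Tspan32, Mgll, Ier3, Fgd2 and Pik3c2b, at distances of 0.0298 to 0.0848. Ier3, an immediate early gene, was at 45.9 and 61.9 CPM in the ruxolitinib libraries and at 47.3 and 133 CPM in the vehicle libraries. For Gadd45g the nearest of 1739 were Pik3r6, D2hgdh, Zfp36, Cxcl2 and Tesk2, at 0.0963 to 0.124. Zfp36, which encodes the mRNA-binding protein tristetraprolin, was at 709 and 744 CPM in the ruxolitinib libraries and at 786 and 2455 CPM in the vehicle libraries. For Gadd45b the nearest of 5005 were Bloc1s1, Mgst2, Atp1b1, Fam220a and Ankrd10, at 0.0359 to 0.0549, and for Cdkn1a the nearest of 7214 were Cops3, Surf4, Rab5a, Cybc1 and Nxf1, at 0.0132 to 0.0166.

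Marker genes of other marrow cell types varied from library to library. In these bulk samples, fewer cells of a type and less RNA per cell cannot be told apart. Ruxolitinib replicate 2, the library with the most Gadd45b and Sesn1, also had the most erythroid RNA, with 14 markers summing to 9368 and 23483 CPM in the ruxolitinib libraries and to 9463 and 9113 CPM in the vehicle libraries. The summed B lineage markers (13 genes) were at 1372 and 2300.3 CPM in the ruxolitinib libraries and at 1408 and 1612 CPM in the vehicle libraries. The dendritic cell markers (14 genes) were at 3903 and 6595 CPM in the ruxolitinib libraries and at 4130 and 3053 CPM in the vehicle libraries. Most of the dendritic sum came from Cd74, at 2220 and 3836 CPM in the ruxolitinib libraries and 2354 and 1875 CPM in the vehicle libraries. Of the 13 dendritic cell markers tested, 0 were at least 2-fold higher in ruxolitinib replicate 2 than in ruxolitinib replicate 1. By that size 1 was lower, and the median log2 ratio was 0.395. Over all genes tested, 1.09% were higher and 2.3% lower by that size between these libraries. The eosinophil, basophil and mast cell markers (14 genes) were at 1170.0 and 431 CPM in the ruxolitinib libraries and at 1050 and 1598 CPM in the vehicle libraries, highest in vehicle replicate 2. The monocyte and macrophage markers (14 genes) summed to 1207 and 1456 CPM in the ruxolitinib libraries and to 1236 and 1259 CPM in the vehicle libraries, most of it from Ly6c2, at 730 and 993 CPM in the ruxolitinib libraries and 769 and 782 CPM in the vehicle libraries. The sum does not show the other markers. Vehicle replicate 2 was the library with the most Gadd45a and Gadd45g. There the median log2 ratio to vehicle replicate 1 was 0.73 over the 13 monocyte and macrophage markers tested. Of these markers 3 were at least 2-fold higher and 0 at least 2-fold lower, against 6.1% and 7.4% of all genes tested. The T and natural killer cell markers (12 genes) summed to between 44.8 and 64.3 CPM in all 4 libraries. All markers found in the files had counts in all 4 libraries, except 1 T and natural killer cell marker at 0 in ruxolitinib replicate 1. The 16 neutrophil markers summed to 99559 and 120427 CPM in the ruxolitinib libraries and to 97837 and 108374 CPM in the vehicle libraries. The part of other cells in the values of the 9 genes was not tested.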

How the data were processed

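The data were 4 deposited files, 1 for each library, each with 16566 genes. Per the file headers, the authors deposited 3 values per gene, namely a read count, TPM and FPKM. The deposited counts are estimated counts, since 91.0% to 91.1% of them were whole within 1e-06, and they were rounded to whole numbers for the tests. FPKM values were used only in a check of the scale. The submitters' processing notes name the build GRCm38.p6 and the tools DESeq2, RSEM and Bowtie2, and versions and annotation are not given in the sources used here.

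The default filterByExpr filter, with a minimum count of 10 and a minimum total of 15, kept 11611 genes. Ruxolitinib was compared with vehicle in edgeR 4.0.16 (R 4.3.3) by the quasi-likelihood test with TMM scaling, group as the term and Benjamini-Hochberg adjustment. The standard error is the size of the log2 fold change divided by the square root of F. The common biological coefficient of variation was 25.7%. Library ratios used log2 CPM with a prior count of 2. DESeq2 1.42.0, RLE scaling, other filters, a replicate block and leaving out each library were alternatives. Procedures were tested on simulated data with less spread between replicates than these libraries and no library set apart. That test therefore does not show what size of change could be detected here. Of the gene identifiers, 16466 matched the RefSeq table, the source of coordinates and promoter sequences. The 9 members and the lists, written from general knowledge, were chosen with earlier results of these data known, and the octamer was added to the motifs after the sequences were seen. The text names the members, up to 4 genes per pathway list by smallest unadjusted p, the 5 nearest profiles and some abundant markers.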

Additional observations from a re-analysis of the deposited data

How the results depend on the processing

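Over the 4 fits that each leave out 1 library, the number of genes called ranged from 2 to 1645. The log2 fold changes ranged from -1.44 to 0.17 for Gadd45a, from -0.17 to 0.62 for Gadd45b, from -0.063 to 0.81 for Trp53 and from -0.14 to 0.48 for Sesn1, so their directions rested on single libraries. List medians ranged from -0.16 to 0.04 for the members, from -0.11 (vehicle replicate 1 left out) to 0.02 (vehicle replicate 2 left out) for the p53 regulators and damage kinases, from -0.0897 (ruxolitinib replicate 1 left out) to 0.0170 for the other p53 targets, from 0.000985 to 0.0347 for the GADD45 partners and from 0.0780 to 0.21 for the paralogs. The cause was not tested. RLE scaling, DESeq2 and the other filters kept 0 calls and the direction of all 8 genes. With the replicate block 16 genes were called over the table and 0 of the 8. The labels do not say that the numbers mark pairs, and deviations of the first replicates from their group means had a correlation across genes of 0.04. Ruxolitinib replicate 1 and vehicle replicate 1 were nonetheless the closest pair, with a median absolute log2 ratio of 0.0968, against 0.259 to 0.484 for the other pairs. Whether the replicate 1 libraries share a source was not tested, and the block was kept as an alternative. Depth limits Phlda3, and the spread between 2 libraries limits the rest.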
